A study of Mus musculus with 10 samples.

Results

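Genes of glucose uptake and glycolysis, of the pentose phosphate pathway and of the TCA cycle were followed across 10 Affymetrix Mouse Gene 1.0 ST arrays of splenic B cells. The set was a list of 42 gene symbols, and a gene entered when a probe set (the group of array probes that reads it) carried its symbol and no other. This left 39 genes out of the 19937 measured in the same way: 16 of 18 for glycolysis, 4 of 5 for the pentose phosphate pathway, 18 of 18 for the TCA cycle with the pyruvate dehydrogenase complex, and the regulator Hif1a. Gpi1, Eno1 and G6pdx were not analysed here.

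The cells were sorted from spleen as B220+CD22+ B cells of CBAxC57BL/6J mice. The 3 floxed arrays came from Sca1-Bcl6(floxed) mice, which carry mouse Bcl6, joined through an IRES to eGFP and flanked by loxP, in the Ly6a (Sca1) vector pLy6; Ly6a itself is known as a marker of blood stem and progenitor cells. The 4 delta arrays came from Sca1-Bcl6(delta) mice, made by breeding floxed mice to mb1-Cre mice, whose Cre is driven from the B lineage gene Cd79a, so that delta mice differ from the others both in the cassette and in carrying Cre. The 3 wild-type arrays came from wild-type mice of the same labelled strain. Independent transgenic lines were made, and the labels give neither the line nor the age behind an array, nor whether each array is a separate animal, so p-values measure the spread between these arrays, which may be technical.

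Glycolysis splits glucose into pyruvate in the cytosol. The pentose phosphate pathway branches from its first intermediate to supply NADPH and ribose, and the TCA cycle oxidises pyruvate-derived acetyl-CoA in mitochondria. Resting B cells are known for low glucose use, and activated B cells for higher use. HIF-1, of which Hif1a encodes the oxygen-regulated subunit, and MYC are known activators of glycolytic genes.

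Values are log2 of the RMA intensity (background-corrected, normalized and summarised over probes), so that a difference of 1 is a doubling. Array medians before log2 lay between 139.3 and 145.4, and 6 of 7 B cell markers were measured, at log2 levels of 12.48 to 13.77 in floxed, 12.49 to 13.80 in delta and 12.49 to 13.86 in wild-type arrays, against a median of 7.20 over all genes and arrays. Of these markers 1 passed the test, Cd79a, the locus that carries Cre in mb1-Cre mice, with a log2 difference of -0.48 in delta against wild-type (SE 0.06, limma adjusted p = 0.0427). The sex of the mice differed between groups: the Y-linked genes lay above Xist in 3 of 3 floxed, 1 of 4 delta (delta 1) and 0 of 3 wild-type arrays. Sex and genotype therefore cannot be told apart in floxed against wild-type except through delta 1. In bulk RNA, fewer cells of a type and less RNA per cell cannot be told apart either.

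The sugar and TCA cycle genes differed little between the groups, and none passed the test. In floxed against wild-type, 0 of 39 members had an adjusted p under 0.05 (limma, Benjamini-Hochberg over 19937 genes), where 0.552% of all genes did. The lowest adjusted p among the members was 0.0585, for the phosphofructokinase gene Pfkp. In delta against wild-type 0 of 39 passed, where 0.0752% of all genes did, and the lowest adjusted p was 0.39. In delta against floxed 0 of 39 passed, where 0.00502% did, and the lowest was 0.654. At an unadjusted p under 0.05, floxed against wild-type gave 11 members higher, where 6.14% of all genes were, and 1 lower, where 6.63% were. Delta against wild-type gave 3 members higher (3.46% of all genes) and 1 lower (4.44%), and delta against floxed gave 0 higher (3.22%) and 6 lower (3.2%).

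The precision was enough to bound most differences. The 95% confidence interval (CI) of the log2 difference lay within 1.5-fold in either direction for 38 of 39 members in floxed against wild-type, with Hk2 the exception, and for 39 of 39 in each of the other comparisons. The standard deviation (SD) between arrays of a group had a median of 0.0956 over the members and 0.1046 over all genes.

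**Figure D1:**
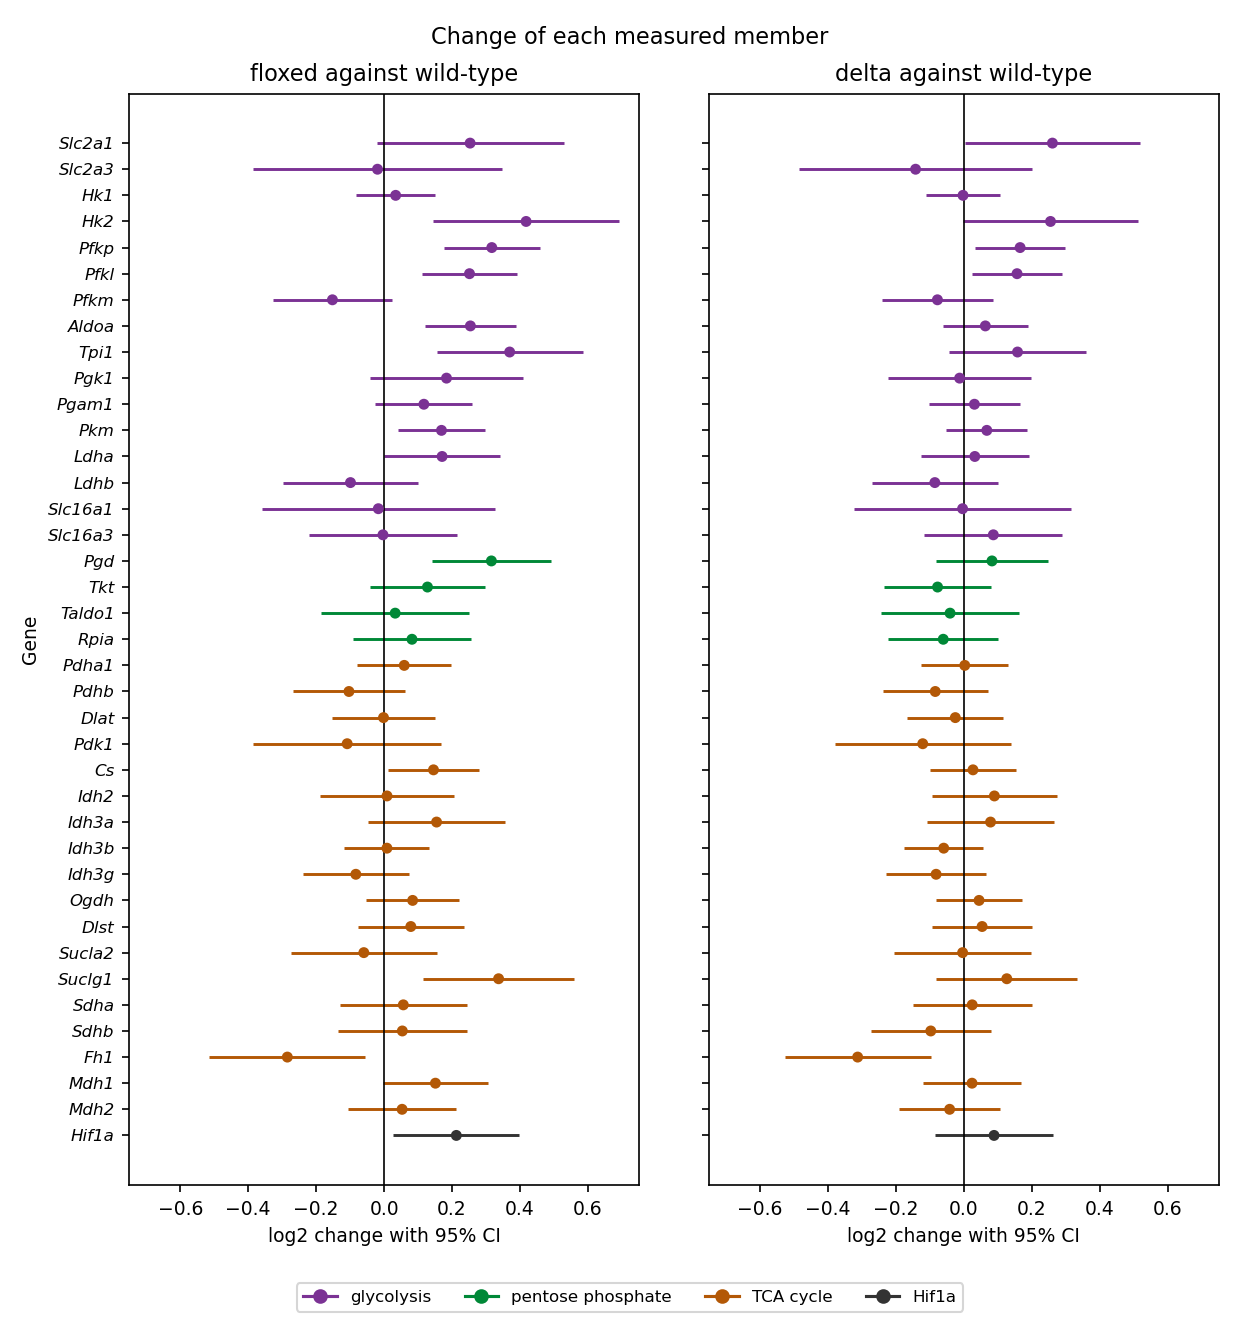
Log2 difference with its 95% CI (x axis) for each of the 39 measured genes (rows, coloured by pathway), in floxed against wild-type (left) and delta against wild-type (right). Most glycolytic points lie right of 0 in the left panel, led by Hk2 at 0.42 and Tpi1 at 0.37, and lie closer to 0 in the right panel, while Fh1 lies left of 0 in both.

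The arrays of floxed and wild-type mice were nevertheless separate for more members on the higher side than for genes at large. In 12 of 39 members (30.8%) every floxed array lay above every wild-type array, where 7.6% of all genes did, and 9.81% of the 13291 brightest genes by mean, among which 38 of the 39 members fall. In 1 of 39 (2.56%), Fh1, every floxed array lay below, where 9.13% of all genes and 9.07% of the brighter ones did. The 12 were 7 of 16 glycolysis genes (Hk2, Pfkp, Pfkl, Aldoa, Tpi1, Pgam1 and Pkm), 1 of 4 pentose phosphate genes (Pgd) and 4 of 18 TCA cycle genes (Cs, Ogdh, Suclg1 and Mdh1). The values used for Hk1, Pgam1, Pkm and Ldhb came from probe sets that sit among genes of another chromosome, as given below. The median log2 difference was 0.17 over the glycolysis genes, 0.10 over the pentose phosphate genes and 0.05 over the TCA cycle genes, against -0.02 over all genes tested. These counts and medians describe a list chosen with earlier results of the same arrays known, and the list was not tested.

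**Figure D2:**
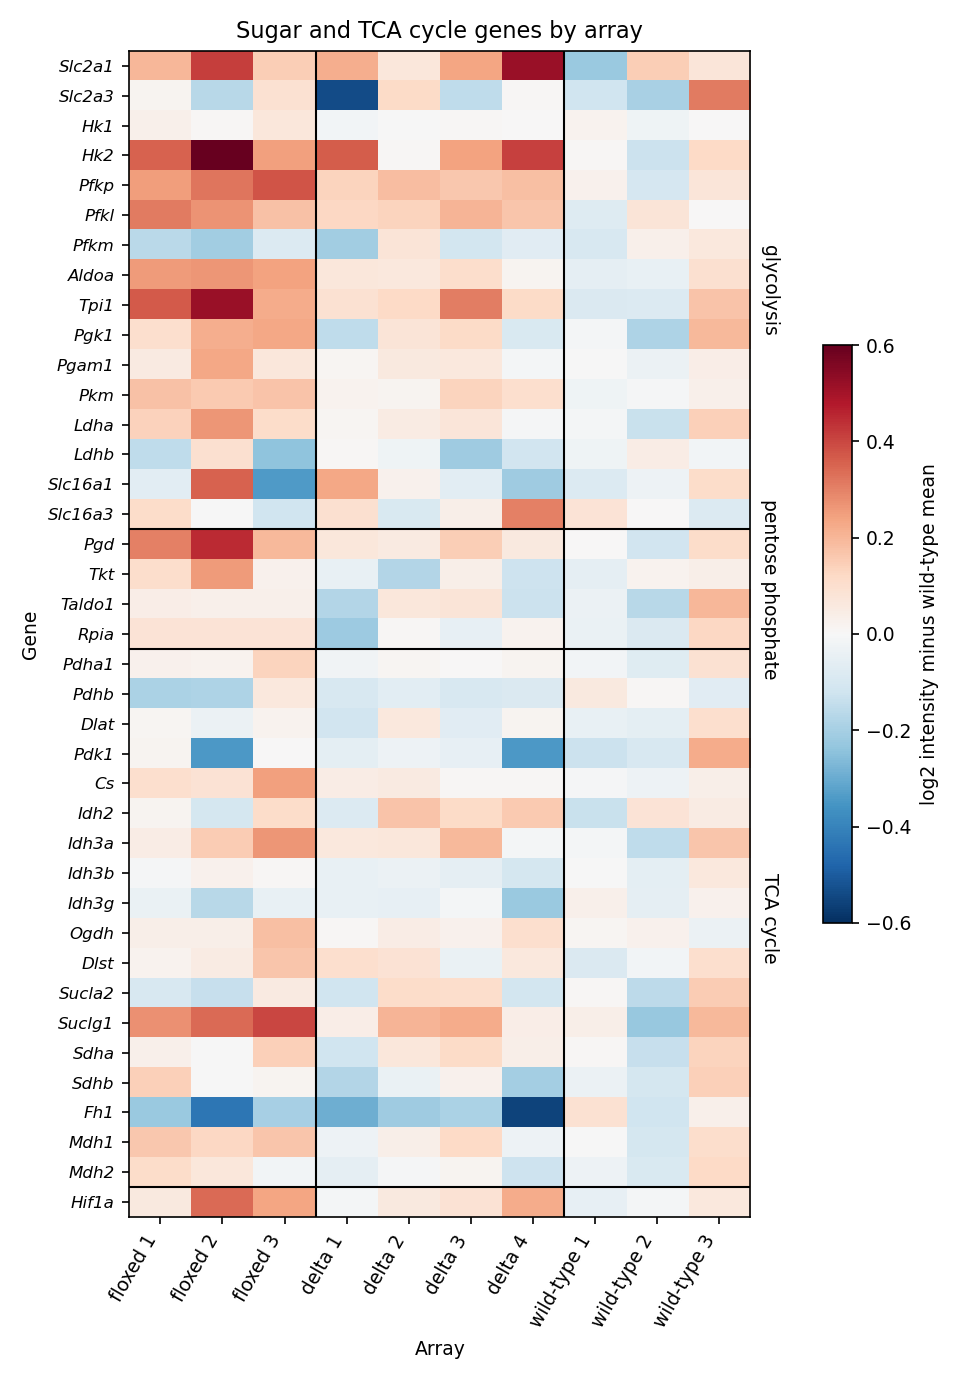
Log2 intensity minus the wild-type mean (colour) of each measured gene (rows, in the order glycolysis, pentose phosphate, TCA cycle, Hif1a) on each array (columns). The upper rows are mostly red in the 3 floxed columns, wild-type 2 is mostly blue and wild-type 3 mostly red, and the Fh1 row is blue in all 7 transgenic columns.

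In delta against wild-type the same measure gave 2 of 39 members higher (5.13%), Pfkp and Pfkl, where 3.75% of all genes and 4.71% of the brighter ones were, and 1 lower (2.56%), Fh1, where 5.5% and 5.93% were. The medians were 0.05 for glycolysis, -0.05 for the pentose phosphate pathway and -0.0007 for the TCA cycle, against -0.01 over all genes. These medians were small enough for 1 array to move or turn them. The glycolysis median was 0.03 without wild-type 2 and 0.08 without wild-type 3. That of the pentose phosphate pathway was -0.0014 without delta 1, -0.09 without wild-type 2 and 0.03 without wild-type 3. The TCA cycle median lay between -0.05, without wild-type 2, and 0.04, without wild-type 3, and was also above 0 without delta 1 (0.02) and without delta 4 (0.0093). Without delta 2, delta 3 or wild-type 1 it stayed below 0, at -0.02, -0.0096 and -0.0041. Both comparisons share the wild-type arrays, so their values are not independent.

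In delta against floxed every delta array lay below every floxed array for 11 of 39 members (28.2%), where 3.61% of all genes and 4.31% of the brighter ones did, and above for 0 of 39, where 3.36% and 3.13% did. The 11 were Pfkp, Aldoa, Pkm, Ldha, Pgd, Rpia, Pdha1, Cs, Idh3b, Suclg1 and Mdh1. None of them reached a log2 difference of 0.25 in size, and the range over all members was -0.23 for Pgd to 0.09 for Slc16a3. The medians were -0.10 for glycolysis, -0.17 for the pentose phosphate pathway and -0.04 for the TCA cycle, against 0.0045 over all genes. The TCA cycle median was -0.06, -0.07 and -0.0014 without floxed 1, 2 and 3, and -0.06 without delta 2 and without delta 3. This comparison shares the floxed arrays with floxed against wild-type.

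Sequence upstream of the start is shown for 5 genes of these patterns: Pfkp with the lowest adjusted p, Tpi1 as a further glycolytic gene, Pgd for the pentose phosphate pathway, and Suclg1 and Fh1, which lay on opposite sides in the TCA cycle. Each is the 250 bases before the outermost annotated start in RefSeq (build GRCm38.p6), 5′ to 3′ along the gene's strand, searched on both strands. Capitals mark GCGTG, a form of the core that HIF-1 is known to bind, printed as CACGC where the match is on the opposite strand. The search also covered its sister form ACGTG, and the MYC-binding E-box motif spelled CACGTG, every copy of which contains the sister form.
Pfkp (chr13:6648772-6649021, minus strand): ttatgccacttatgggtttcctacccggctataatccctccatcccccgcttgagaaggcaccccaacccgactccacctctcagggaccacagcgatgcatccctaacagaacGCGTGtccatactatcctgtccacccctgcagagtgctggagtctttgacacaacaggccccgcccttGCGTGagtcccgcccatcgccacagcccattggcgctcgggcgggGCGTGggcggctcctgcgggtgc
Tpi1 (chr6:124814159-124814408, minus strand): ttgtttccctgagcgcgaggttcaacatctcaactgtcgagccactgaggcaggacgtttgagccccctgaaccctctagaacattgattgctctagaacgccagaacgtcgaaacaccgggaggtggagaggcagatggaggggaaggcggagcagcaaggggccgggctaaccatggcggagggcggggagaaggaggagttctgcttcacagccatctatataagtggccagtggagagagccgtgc
Pgd (chr4:149166706-149166955, minus strand): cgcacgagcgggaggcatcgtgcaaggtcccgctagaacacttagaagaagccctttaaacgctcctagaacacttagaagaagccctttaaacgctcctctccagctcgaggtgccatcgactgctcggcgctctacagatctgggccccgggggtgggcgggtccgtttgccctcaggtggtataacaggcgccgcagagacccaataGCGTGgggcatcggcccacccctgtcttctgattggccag
Suclg1 (chr6:73248255-73248504, plus strand): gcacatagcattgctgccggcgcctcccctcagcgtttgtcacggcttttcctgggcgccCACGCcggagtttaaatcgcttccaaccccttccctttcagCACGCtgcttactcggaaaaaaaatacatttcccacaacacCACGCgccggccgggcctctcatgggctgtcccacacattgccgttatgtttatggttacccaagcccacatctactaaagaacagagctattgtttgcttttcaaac
Fh1 (chr1:175625636-175625885, minus strand): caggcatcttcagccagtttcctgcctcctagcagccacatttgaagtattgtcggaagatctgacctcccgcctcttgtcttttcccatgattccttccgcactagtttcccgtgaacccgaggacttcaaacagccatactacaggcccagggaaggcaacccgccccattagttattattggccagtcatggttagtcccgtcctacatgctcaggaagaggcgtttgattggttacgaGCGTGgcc

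GCGTG occurred 3 times upstream of Pfkp and 3 times upstream of Suclg1, 1 time each upstream of Pgd and Fh1, and not in the Tpi1 window, and neither of the other motifs occurred in these 5 windows. Over all members, 40 of 42 symbols had 57 upstream windows, since some genes have several starts whose windows overlap. GCGTG was present in 32 of 57 (56.1%), against 28.2% of all 32851 windows of the same length. ACGTG was present in 23 of 57 (40.4%), against 16.6%, and CACGTG in 7 of 57 (12.3%), against 6.02%. A gene with several windows counts more than once in these shares. Ogdh is such a gene: all its windows held ACGTG, and some of them GCGTG or CACGTG. The member windows were richer in G and C, with a median of 60.8%, against 52.4% over all windows, and the part of base composition in these shares was not tested. GCGTG was found upstream of Fh1, which lay lower, and of genes that lay higher, and a link between motif and direction was not tested.

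Glucose enters through the transporters GLUT1 and GLUT3, encoded by Slc2a1 and Slc2a3. Slc2a1 had log2 levels of 11.06, 11.27 and 11.01 in floxed, 11.08, 10.93, 11.10 and 11.38 in delta, and 10.64, 11.01 and 10.93 in wild-type arrays. The groups overlapped, and wild-type 1 was the lowest array. The log2 difference of Slc2a1 was 0.25 in floxed (standard error, SE, 0.13, 95% CI -0.02 to 0.53) and 0.26 in delta arrays over the same wild-type arrays (SE 0.12, 95% CI 0.0029 to 0.52), with limma adjusted p of 0.433 and 0.623. Slc2a3 differed by -0.02 in floxed and -0.14 in delta against wild-type (limma adjusted p = 0.977 and 0.9), and had the widest spread between arrays of any member (SD 0.25).

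Hexokinase commits glucose to the cell by phosphorylation. Hk2, the inducible form, had log2 levels of 7.35, 7.66 and 7.24 in floxed, 7.36, 7.01, 7.24 and 7.41 in delta, and 7.01, 6.87 and 7.12 in wild-type arrays. All floxed arrays lay above all wild-type arrays, while delta 2 lay inside the wild-type range. Hk2 had the largest difference of any member in floxed against wild-type, 0.42 (1.34-fold, SE 0.12, 95% CI 0.14 to 0.69, limma adjusted p = 0.174). In delta against wild-type the Hk2 difference was 0.25 (SE 0.12, 95% CI -0.0012 to 0.51, adjusted p = 0.636).

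Hk1, a broadly expressed form, was read by a pair of probe sets that did not give the same picture. The brighter (10414661), used in the fit, stood at 13.18 to 13.28 in all 10 arrays, with a difference of 0.03 in floxed against wild-type (SE 0.05, limma adjusted p = 0.834). By probe set number it sits among genes of chromosome 14, while Hk1 is annotated on chromosome 10, and its only listed transcript is shared by 17 probe sets, of which 15 also carry the ribosomal protein gene Rpl17. The other probe set (10369541) sits among genes of chromosome 10 and had log2 levels of 9.12, 9.14 and 9.02 in floxed, 8.86, 8.90, 9.01 and 9.04 in delta, and 8.86, 8.65 and 9.03 in wild-type arrays. Wild-type 3 lay inside the floxed range, and the difference of this Hk1 probe set was 0.25 in floxed against wild-type (SE 0.09, 95% CI 0.04 to 0.45, limma adjusted p = 0.291 with every probe set tested).

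Phosphofructokinase, the main control point of glycolysis, is a tetramer of platelet, liver and muscle type subunits encoded by Pfkp, Pfkl and Pfkm. Pfkp had log2 levels of 9.30, 9.36 and 9.42 in floxed, 9.18, 9.23, 9.21 and 9.23 in delta, and 9.07, 8.95 and 9.12 in wild-type arrays. No group overlapped another, with delta between floxed and wild-type. The log2 difference of Pfkp was 0.32 in floxed against wild-type (1.25-fold, SE 0.06, 95% CI 0.18 to 0.46, limma adjusted p = 0.0585). Delta exceeded wild-type by 0.17 (SE 0.06, 95% CI 0.03 to 0.30, adjusted p = 0.5), with -0.15 in delta against floxed (SE 0.06, 95% CI -0.28 to -0.02, adjusted p = 0.744). Pfkp passed in floxed against wild-type under 4 alternatives, such as quantile normalization again (limma adjusted p = 0.041), and its adjusted p over 21 alternatives lay between 0.0395 and 0.575.

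Pfkl had log2 levels of 9.26, 9.22 and 9.12 in floxed, 9.07, 9.08, 9.15 and 9.11 in delta, and 8.87, 9.02 and 8.95 in wild-type arrays. Both transgenic groups lay above wild-type and overlapped each other. Its difference was 0.25 in floxed (SE 0.06, limma adjusted p = 0.112), while delta exceeded wild-type by 0.16 (SE 0.06, adjusted p = 0.532). Pfkm had levels of 6.96, 6.92 and 7.05 in floxed, 6.92, 7.20, 7.02 and 7.06 in delta, and 7.03, 7.16 and 7.19 in wild-type arrays. The groups overlapped, and its estimates had the opposite sign from those of the other subunits, -0.15 in floxed (SE 0.08, 95% CI -0.33 to 0.02, adjusted p = 0.463), with -0.08 for delta minus wild-type.

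Aldolase A and triose phosphate isomerase split the sugar and interconvert its pieces. Aldoa had log2 levels of 11.91, 11.92 and 11.89 in floxed, 11.72, 11.72, 11.76 and 11.67 in delta, and 11.60, 11.61 and 11.75 in wild-type arrays. The floxed arrays stood above all others, and delta and wild-type overlapped. The difference of Aldoa was 0.25 in floxed against wild-type (SE 0.06, 95% CI 0.12 to 0.39, limma adjusted p = 0.0981), and delta minus floxed was -0.19 (SE 0.06, 95% CI -0.32 to -0.07, adjusted p = 0.654). Tpi1 had levels of 9.70, 9.86 and 9.56 in floxed, 9.43, 9.45, 9.64 and 9.45 in delta, and 9.25, 9.25 and 9.51 in wild-type arrays. Floxed lay above wild-type in every array, delta 3 reached into the floxed range, and the difference was 0.37 (1.29-fold, SE 0.10, 95% CI 0.15 to 0.58, adjusted p = 0.124).

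The later glycolytic steps gave smaller estimates. Pgk1, the phosphoglycerate kinase gene on the X chromosome, differed by 0.18 in floxed against wild-type (SE 0.10, limma adjusted p = 0.487) and by -0.01 in delta against wild-type. Pgam1, phosphoglycerate mutase, differed by 0.12 in floxed against wild-type (adjusted p = 0.484), but its only single-symbol probe set sits among genes of chromosome 7, while the gene is annotated on chromosome 19.

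Pkm encodes pyruvate kinase, the last step to pyruvate. Its brighter probe set (10528480) had log2 levels of 10.22, 10.20 and 10.21 in floxed, 10.06, 10.06, 10.18 and 10.14 in delta, and 10.02, 10.04 and 10.08 in wild-type arrays. Floxed lay above all other arrays, with a difference of 0.17 against wild-type (SE 0.06, 95% CI 0.04 to 0.30, limma adjusted p = 0.241). That probe set sits among genes of chromosome 5. The Pkm probe set among genes of chromosome 9, where Pkm is annotated, gave 0.21 (SE 0.07, adjusted p = 0.265 with every probe set tested). There too every floxed array lay above every wild-type array, but floxed and delta overlapped, with floxed 3 at 9.98 below delta 3 and delta 4 at 10.05 and 10.06.

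Lactate dehydrogenase converts pyruvate to lactate, with Ldha encoding the form typical of glycolytic tissues and Ldhb the heart form. Ldha had log2 levels of 11.23, 11.36 and 11.20 in floxed, 11.11, 11.14, 11.17 and 11.09 in delta, and 11.08, 10.96 and 11.24 in wild-type arrays. Wild-type 3 reached into the floxed range, and the difference was 0.17 in floxed (SE 0.08, 95% CI 0.0011 to 0.34, limma adjusted p = 0.388), while delta exceeded wild-type by 0.03. Ldhb lay at 5.68 to 6.02 in floxed, 5.71 to 5.93 in delta and 5.89 to 5.96 in wild-type arrays, with a difference of -0.10 in floxed against wild-type (adjusted p = 0.697). This brighter Ldhb probe set sits among genes of chromosome 19, and the Ldhb probe set on the gene's own chromosome 6 gave 0.12 (SE 0.17), the opposite sign. The lactate transporter genes Slc16a1 and Slc16a3 differed by -0.02 and -0.0033 in floxed against wild-type (adjusted p = 0.978 and 0.994).

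**Figure D3:**
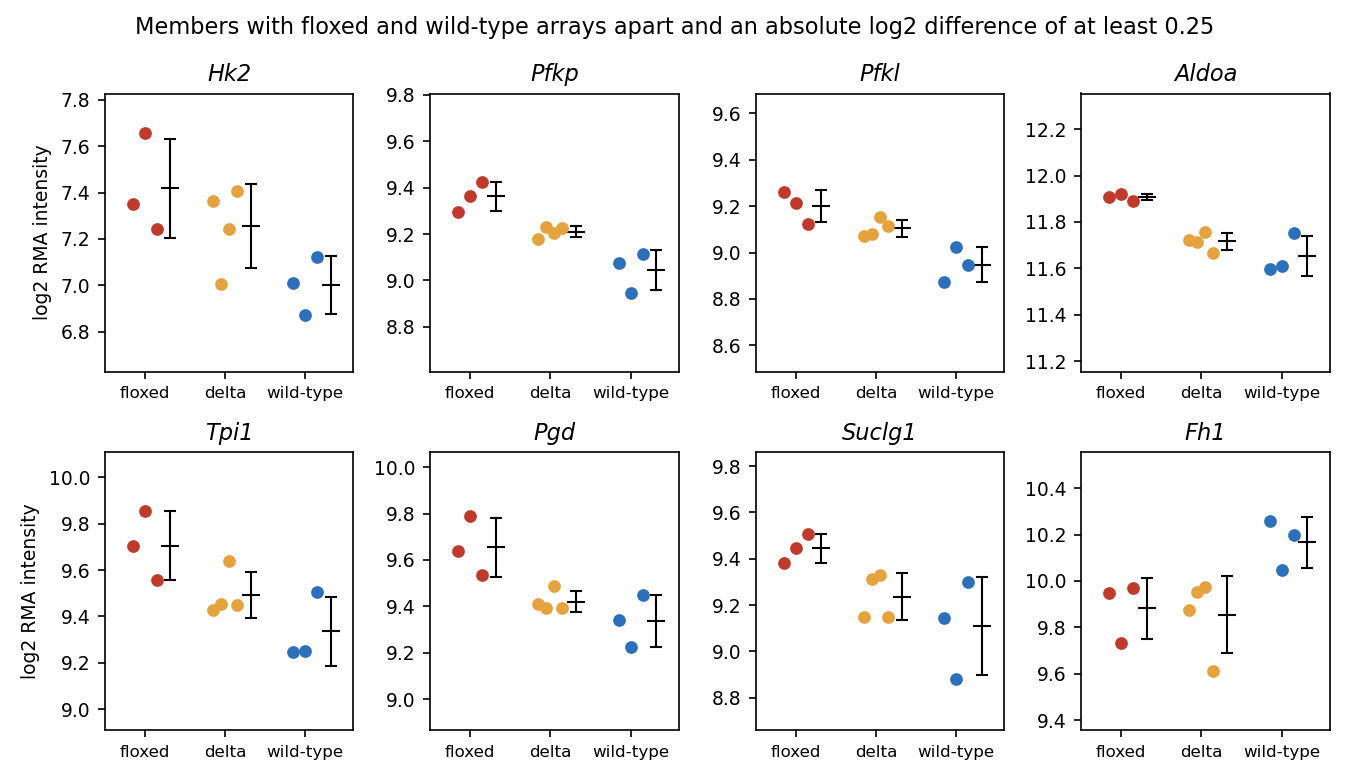
Log2 RMA intensity (y axes, each spanning the same range) on each array (points) by group, with mean and SD (bars), for the 8 genes with separate floxed and wild-type arrays and a log2 difference of at least 0.25 in size. In 7 panels the floxed points are the higher ones, as with Aldoa at 11.89 to 11.92 against 11.60 to 11.75 in wild-type, and in the Fh1 panel they are the lower ones.

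In the pentose phosphate pathway, Pgd, the second NADPH-producing dehydrogenase, had log2 levels of 9.64, 9.79 and 9.53 in floxed, 9.41, 9.39, 9.49 and 9.39 in delta, and 9.34, 9.22 and 9.45 in wild-type arrays. The floxed arrays lay above all others, and delta and wild-type overlapped. Its difference was 0.32 in floxed against wild-type (SE 0.08, 95% CI 0.14 to 0.49, limma adjusted p = 0.111), 0.08 in delta against wild-type (adjusted p = 0.871) and -0.23 in delta against floxed (SE 0.07, 95% CI -0.40 to -0.07, adjusted p = 0.699).

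The enzymes of the reversible branch showed less. Tkt, transketolase, differed by 0.13 in floxed against wild-type (SE 0.08, limma adjusted p = 0.528) and by -0.21 in delta against floxed (SE 0.07, 95% CI -0.36 to -0.05, adjusted p = 0.724). Rpia, the isomerase that yields ribose 5-phosphate, lay above all delta arrays in every floxed array, at -0.14 in delta against floxed (SE 0.07, adjusted p = 0.811) and 0.08 in floxed against wild-type. Taldo1, transaldolase, differed by 0.03 in floxed and -0.04 in delta against wild-type.

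At the entry to the TCA cycle, the pyruvate dehydrogenase genes Pdha1, Pdhb and Dlat differed by 0.06, -0.10 and -0.0017 in floxed against wild-type, with limma adjusted p of 0.744, 0.611 and 0.995. Pdk1, the kinase that switches this complex off, had log2 levels of 8.77, 8.41 and 8.76 in floxed, 8.70, 8.72, 8.71 and 8.41 in delta, and 8.63, 8.66 and 8.98 in wild-type arrays. Floxed 2 and delta 4 were low and wild-type 3 high, so the groups overlapped, at a difference of -0.11 in floxed (SE 0.13, adjusted p = 0.773), and delta minus wild-type was -0.12 (SE 0.12, adjusted p = 0.881).

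Cs, citrate synthase, had log2 levels of 10.94, 10.92 and 11.08 in floxed, 10.88, 10.89, 10.84 and 10.84 in delta, and 10.83, 10.80 and 10.87 in wild-type arrays. Floxed lay above both other groups, by 0.15 over wild-type (SE 0.06, 95% CI 0.01 to 0.28, limma adjusted p = 0.349), and delta differed from floxed by -0.12 (SE 0.06, adjusted p = 0.789). The isocitrate dehydrogenase genes Idh2, Idh3a, Idh3b and Idh3g differed by 0.0086, 0.15, 0.0084 and -0.08 in floxed against wild-type, none with an adjusted p under 0.519.

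The 2 TCA cycle genes with the largest estimates went opposite ways. Suclg1, a subunit of succinyl-CoA synthetase, had log2 levels of 9.38, 9.45 and 9.51 in floxed, 9.15, 9.31, 9.33 and 9.15 in delta, and 9.14, 8.88 and 9.30 in wild-type arrays. Floxed lay above both other groups, with wild-type 2 the lowest array, and the difference against wild-type was 0.34 (1.26-fold, SE 0.10, 95% CI 0.12 to 0.56, limma adjusted p = 0.176). Without wild-type 2 it was 0.22 (adjusted p = 0.438). Its partner subunit for ATP formation, Sucla2, differed by -0.06 (SE 0.10, adjusted p = 0.847).

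Fh1, fumarase, had log2 levels of 9.95, 9.73 and 9.97 in floxed, 9.87, 9.95, 9.98 and 9.61 in delta, and 10.26, 10.05 and 10.20 in wild-type arrays. All 7 transgenic arrays lay below all wild-type arrays, with floxed 2 and delta 4 lowest. The difference was -0.28 in floxed (0.821-fold, SE 0.10, 95% CI -0.51 to -0.06, limma adjusted p = 0.278), and it was -0.31 in delta against wild-type (0.805-fold, SE 0.10, 95% CI -0.53 to -0.10, adjusted p = 0.39). Between delta and floxed it was -0.03 (95% CI -0.24 to 0.19, adjusted p = 0.979). It was the only member below wild-type in every array of either transgenic group.

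Ogdh and Dlst, of the oxoglutarate dehydrogenase complex, differed by 0.08 and 0.08 in floxed against wild-type, and the succinate dehydrogenase genes Sdha and Sdhb by 0.06 and 0.05. The malate dehydrogenase genes Mdh1 (cytosolic) and Mdh2 (mitochondrial) differed by 0.15 and 0.05, with limma adjusted p of 0.397 and 0.809. Of these 6 genes, Ogdh and Mdh1 lay above wild-type in every floxed array, and the arrays of the other 4 overlapped.

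Hif1a had log2 levels of 10.94, 11.22 and 11.12 in floxed, 10.87, 10.94, 10.97 and 11.11 in delta, and 10.83, 10.87 and 10.94 in wild-type arrays. Floxed 1 and wild-type 3 stood at the same rounded level, and the difference was 0.21 in floxed (SE 0.08, 95% CI 0.03 to 0.40, limma adjusted p = 0.321), while delta exceeded wild-type by 0.09 (SE 0.08, adjusted p = 0.865). Of 16 HIF partners and known targets, all measured, 0 passed in any comparison, with a median difference of -0.03 in floxed and -0.06 in delta against wild-type. The list mixes partners and regulators with targets, so its median is no measure of HIF activity. Ndrg1, a hypoxia-induced gene, was 9.17 to 9.41 in floxed, 8.13 to 9.40 in delta and 8.88 to 8.96 in wild-type arrays (floxed against wild-type 0.38, SE 0.23, adjusted p = 0.529).

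Other genes of these pathways that are not among the 42 were counted as lists. Of 24 measured of 28 further glycolysis genes, 0 passed in each comparison, 4 lay above and 0 below wild-type in every floxed array (7.6% and 9.13% of all genes), and the median in floxed against wild-type was -0.0019. Of 8 further pentose phosphate genes, all measured, 0 passed, with 1 above and 2 below (median 0.0079). Of 23 measured of 25 further TCA cycle and pyruvate entry genes, 0 passed, with 4 above and 0 below (median 0.04). Suclg2, the GTP-forming partner of Suclg1, differed by 0.34 in floxed against wild-type (SE 0.10, limma adjusted p = 0.173), and Pdk2, a relative of Pdk1, by 0.29 (SE 0.12, adjusted p = 0.35). Slc2a6, a glucose transporter relative, differed by 0.31 in delta against wild-type (SE 0.09, adjusted p = 0.376).

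The largest difference in these lists was in Bpgm, which makes 2,3-bisphosphoglycerate and is known for its role in red cells. Bpgm had log2 levels of 8.33, 8.16 and 8.25 in floxed, 7.18, 7.66, 7.43 and 7.76 in delta, and 7.17, 7.42 and 7.85 in wild-type arrays. The floxed arrays stood above all others, at a difference of 0.77 against wild-type (SE 0.17, limma adjusted p = 0.0769), and delta differed from floxed by -0.74 (SE 0.16, adjusted p = 0.558).

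Markers of other cells stood higher, on average, in the floxed group. Over 7 measured of 10 erythroid markers the mean log2 level lay 0.88, 0.64 and 0.41 above the wild-type mean in floxed, at -0.42, 0.27, 0.0060 and 0.36 in delta, and at -0.19, -0.09 and 0.28 in wild-type arrays. None of these 7 passed the test, and 5 lay above wild-type in every floxed array, where 7.6% of all genes did. Their summed intensity was 2625 to 3550 in floxed, 1185 to 2492 in delta and 1564 to 2591 in wild-type arrays. As with Bpgm, delta 1 was lowest in the delta group and wild-type 3 highest in the wild-type group.

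The proliferation markers, 4 of 5 measured, lay 0.43, 0.44 and 0.26 above the wild-type mean in floxed, at 0.04, -0.11, -0.07 and 0.12 in delta, and at 0.19, -0.11 and -0.08 in wild-type arrays. None of the 4 passed, and their summed intensity was 1066 to 1150 in floxed, 872 to 944 in delta and 819 to 981 in wild-type arrays. The T cell markers, 9 of 10 measured, lay 0.69, 0.06 and 0.59 above the wild-type mean in floxed arrays. They lay at -0.12, -0.09, -0.06 and 0.31 in delta, and at -0.15, 0.09 and 0.065 in wild-type arrays. Their summed intensity was 3955 to 4365 in floxed, 3625 to 4521 in delta and 3707 to 3967 in wild-type arrays. In floxed against wild-type 8 of the 9 estimates were positive and 1 negative, that of Cd2 (-0.03). Cd2 is the brightest of these markers and so weighs most in the sums. The NK cell markers, 8 of 8 measured, summed to 1030 to 1305 in floxed, 624 to 1055 in delta and 597 to 694 in wild-type arrays. Of the 8 estimates in floxed against wild-type, 7 were positive and 1 negative, that of Gzma (-0.0049). They were uneven, led by Il2rb (1.398), Nkg7 (1.01) and Prf1 (0.81), with Klrb1c at 0.05 and Klrd1 at 0.07. The median over the NK list lay 0.36, -0.012 and 0.50 from the wild-type mean in floxed 1, 2 and 3. Klrb1c, Klrd1 and Gzma of floxed 2 lay below every wild-type array. The myeloid markers, 8 of 8 measured, summed to 1361 to 1738 in floxed, 1010 to 2215 in delta and 868 to 886 in wild-type arrays. This list did not move as a whole. In floxed against wild-type 6 estimates were positive, led by Adgre1 (1.91) and Itgam (1.12), and 2 negative, Csf1r (-0.21) and Cd14 (-0.26). The median over the myeloid list lay 0.87, -0.18 and 0.14 from the wild-type mean in the floxed arrays. The plasma cell markers, 5 of 5 measured, summed to 3939 to 4130 in floxed, 3900 to 4448 in delta and 3521 to 3646 in wild-type arrays. Of these, in floxed against wild-type, Jchain, the joining chain of secreted antibody, rose by 1.64 (SE 0.17, limma adjusted p = 0.00383) and Sdc1, the plasma cell surface marker, fell by 0.51 (SE 0.10, adjusted p = 0.045). None of the T, NK and myeloid markers passed, and an intensity on an array does not reach 0, so no defining marker could be called absent.

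The B cell markers summed to 55234 to 58693 in floxed, 52093 to 54285 in delta and 55861 to 59302 in wild-type arrays. These sums include Cd79a, the locus that carries Cre in mb1-Cre mice, which differed by -0.48 in delta against wild-type. The other measured B cell markers differed by -0.08 (Ms4a1) to 0.10 (Cd22) in that comparison. The glycolysis genes, by comparison, lay on average 0.12, 0.21 and 0.09 above the wild-type mean in floxed, 0.03, 0.05, 0.07 and 0.08 in delta, and -0.04, -0.04 and 0.08 in wild-type arrays. The part of these cells in the values of the sugar and TCA cycle genes was not tested.

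**Figure D4:**
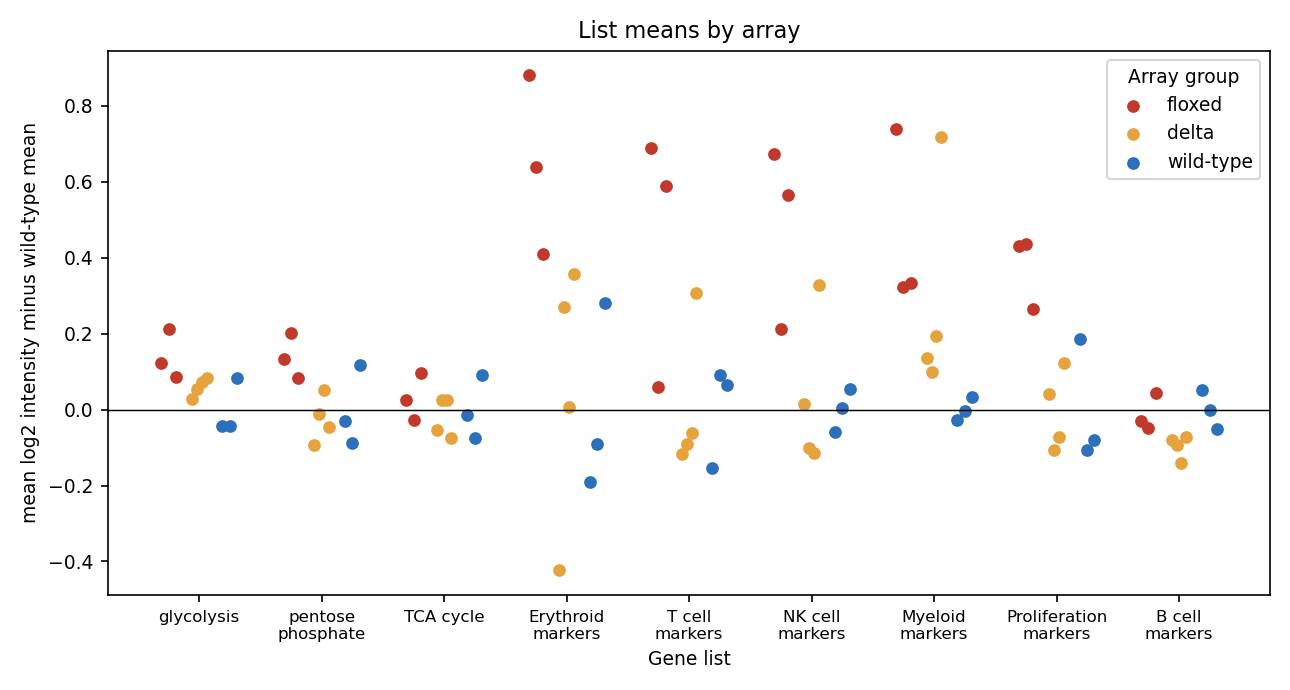
Mean log2 intensity of each list minus its wild-type mean (y axis) on each array (points, coloured by group), for the member pathways and for marker lists. The glycolysis points of the floxed arrays lie at 0.09 to 0.21, a range that the wild-type 3 point at 0.08 nearly reaches, and the erythroid points of the floxed arrays lie at 0.41 to 0.88.

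Within the wild-type group the list means also shifted together by array. Wild-type 3 exceeded wild-type 2 by list mean in glycolysis (0.08 against -0.04), the pentose phosphate pathway (0.12 against -0.09) and the TCA cycle (0.09 against -0.08). The floxed and delta groups did not show this. Floxed 2 was the highest floxed array in glycolysis (0.21) and the lowest in the TCA cycle (-0.03). Delta 4 was likewise the highest delta array in glycolysis (0.08) and the lowest in the TCA cycle (-0.075). Without wild-type 2 the glycolysis median in floxed against wild-type was 0.10 and the TCA cycle median 0.0034. Without floxed 1 and without floxed 3 the TCA cycle median was 0.02 and 0.02, and without wild-type 3 it was 0.08.

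With sex pattern as a covariate, the floxed to wild-type contrast rests on how far delta 1 departs from the remaining delta arrays. In that fit Hk2 was 0.27 (SE 0.22), Pfkp 0.36 (SE 0.12), Aldoa 0.25 (SE 0.11), Tpi1 0.46 (SE 0.18), Pgd 0.33 (SE 0.15), Suclg1 0.45 (SE 0.18) and Fh1 -0.31 (SE 0.19), with limma adjusted p between 0.575 and 0.838. Slc2a3 moved most, to 0.51 (SE 0.23, adjusted p = 0.686), with delta 1 at 9.05 against 9.43 to 9.70 in the remaining delta arrays. Delta 1 lay below every other delta array in 17 of 39 members (43.6%), where 24.8% of all genes did, and above every one in 3 (7.69%), where 25.5% did. It lay below them in Pfkp (9.18 against 9.21 to 9.23) and in Hif1a (10.87 against 10.94 to 11.11). Of the X-linked members, Pgk1 was 9.54 in delta 1 against 9.60 to 9.81 in the other delta arrays, Pdha1 9.71 against 9.73 to 9.74, and Idh3g 11.66 against 11.48 to 11.69.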

How the data were processed

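The deposited values are the authors' intensities per probe set, made with RMA per the submitters' processing notes, from Mouse Gene 1.0 ST arrays per the series' design text. They lie on a linear scale (4.46 to 26808), and log2 was taken here. For the RMA software, its version and the annotation build: not given in the sources used here. Of 34760 probe sets, 21640 carried 1 symbol, 1321 several and 11799 none. For the 954 genes with several single-symbol probe sets the brightest was used, which left 19937 genes. A probe set's place was read from the chromosome of the 8 nearest on each side by number. Upstream sequence came from RefSeq (GRCm38.p6).

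Differences were fitted with limma 3.58.1 in R 4.3.3 (lmFit, eBayes, a mean per group over all 10 arrays, 11.3 total degrees of freedom), two-sided, with Benjamini-Hochberg adjustment over all genes and a threshold of 0.05. The procedure was tested on simulated data. Arrays have no counting depth, so their number limits the precision. Members, gene lists and the rule for described genes (all members accounted for, with array values for those past the threshold, those with separate groups and a log2 difference of at least 0.25 in size, and 12 fixed entry and branch point genes) were chosen with earlier results of these data known; other genes of the pathways were named by the first parts of that rule. Alternatives changed the normalization, removed dim genes, averaged or separated probe sets, altered eBayes options, weighted arrays, fitted pairs of groups, added sex or a replicate block, and dropped arrays singly; the probe set at the gene's locus was added after seeing the data.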

Additional observations from a re-analysis of the deposited data

Results flagged for a closer look

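Each group of 4 arrays, here the delta group, was examined for an array far from the others (by Dixon's ratio of the gap to the group's range), in 39 genes. Chance flags about 1 in 20 such groups, and 3 were found. Tpi1 was 9.64 in delta 3, against 9.43 to 9.45 in the other delta arrays (ratio 0.878). Pgd was 9.49 in delta 3, against 9.39 to 9.41 (ratio 0.834). Pdk1 was 8.41 in delta 4, against 8.70 to 8.72 (ratio 0.91).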

How the results depend on the processing

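No member passed the threshold in delta against wild-type or delta against floxed under any alternative run. In floxed against wild-type, Pfkp passed (1 member called) after quantile normalization again (0.29, limma adjusted p = 0.041), among the 13291 brightest genes alone (adjusted p = 0.0395) and with trend and robust options (adjusted p = 0.043). With array weights 2 members were called, Pfkp (0.30, adjusted p = 0.0436) and Pgd (0.37, adjusted p = 0.0478). More genes at large were called too: 121 after quantile normalization again, 161 among the brightest genes and 208 with array weights, against 110 in the main fit. Over 21 alternatives the adjusted p of Pfkp lay between 0.0395 and 0.575, and that of Pgd between 0.0478 and 0.681. Hk2, Pfkp, Pfkl, Aldoa, Tpi1, Pgd, Suclg1 and Fh1 kept their sign in floxed against wild-type under every alternative run. The glycolysis median there was 0.24 and the pentose phosphate median 0.25 with sex pattern as a covariate; leaving out 1 array at a time gave 0.10 to 0.21 for glycolysis. The glycolysis median with the probe set at the gene's locus was 0.20.

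Counts over all genes moved more; the cause was not tested. In floxed against wild-type 110 genes were called; with array weights it was 208, with the groups compared alone 193, and with sex as a covariate 2. Leaving out 1 array gave 18 to 240: 46, 37 and 25 without floxed 1, 2 and 3, 67 and 240 without delta 3 and 4, and 24 and 18 without wild-type 1 and 2. In delta against wild-type 15 were called, against 0 with every probe set on its own, 9 with trend and robust options, 0 with the groups alone and 3 with sex; leaving out 1 array gave 0 to 23, with 0 without floxed 1 or 3, delta 3, or wild-type 1 or 2, 9 without floxed 2, 3 without delta 1, and 23 without wild-type 3. In delta against floxed 1 was called, against 3 with trend and robust options and 2 with the groups alone; leaving out 1 array gave 1 to 10, with 2 without floxed 1 or 3 or wild-type 1, 5 without floxed 2, 10 without delta 1 and 4 without delta 4. Deviations from the group means correlated at -0.083 to 0.121 between same-numbered arrays of different groups, and at -0.165 to 0.214 between differently numbered ones. No pairing by number was seen, but with 3 or 4 arrays in a group this measure cannot exclude it. With a replicate block the counts were 188, 6 and 2 in the 3 comparisons in the same order, and no member was called.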
